A study of Mus musculus with 8 samples.

Results

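Fibroblasts without Smurf2 that had been kept in culture for a long time were compared with the same kind of cells early in culture. They are 4 of the 8 arrays of the study, chosen by genotype alone: Smurf2-/- mouse embryonic fibroblasts at late passage and at early passage, in each of 2 genetic backgrounds. In mixed BL, which joins 129SVJ with NIH Black Swiss, the arrays were of passage 33 and passage 6, from a mix of 3 embryos. In the C57B6 background they were of passage 28 and passage 7, from 1 embryo. The 4 other arrays held wild-type fibroblasts of the same passages, from a mix of 2 embryos in mixed BL and from 1 embryo in C57B6, and served to show where the Smurf2-/- difference departed from that of wild-type cells. They also entered the fit, and so the spread behind each SE and p-value: with the Smurf2-/- arrays alone (1 residual degree of freedom) the smallest adjusted p was 0.237. All cells were grown in serum without further treatment. The sample descriptions state embryonic day 14.5 and the growth protocol day 11.5. Nothing in the labels states whether a late array is a later passage of the early culture, and no technical replicates were made, so each background gives 1 late array against 1 early array. The spread behind every p-value is what the fit left unexplained between arrays, without replicates of any group, and part of it may be technical. In the main fit it reflects how far the backgrounds disagreed.

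Smurf2 encodes a HECT-type ubiquitin ligase that attaches ubiquitin to Smad proteins, which carry TGF-beta and BMP signals to the nucleus, and to other targets. Wild-type mouse fibroblasts in culture usually slow and enter senescence, a lasting arrest of division, and cultures that pass this barrier grow on as lines. Genes of the cell cycle, of p53, of secreted matrix and of contractile fibres are commonly followed across such cultures.

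The deposited values are log2 signals per transcript cluster, each centred on the median of its 8 values. A value of 0 is therefore that median, values of different genes cannot be ranked against each other, and whether a gene or a cell type marker is present at all cannot be read from them. A late minus early difference is a log2 difference. The spread of all 24169 clusters around 0 was wider at late passage, with an SD of 0.348 and 0.365 on the late Smurf2-/- arrays of mixed BL and C57B6, against 0.280 and 0.226 on the early ones. The median late minus early difference over all clusters was -0.0025 in mixed BL and 0.0727 in C57B6. Smurf2, as the mean of its 2 clusters, stood at -1.19 and -1.21 on the late and at -0.70 and -0.43 on the early Smurf2-/- arrays (mixed BL first), below the 4 wild-type arrays, which lay between 0.43 and 0.96. No source used here says which exons were deleted, so the values of its probes do not settle the label.

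The wild-type arrays differed from the Smurf2-/- arrays in sex-linked genes. Xist, the noncoding RNA of the inactive X chromosome, lay between -2.07 and -1.53 on the 4 Smurf2-/- arrays and between 1.53 and 3.20 on the 4 wild-type arrays. Eif2s3y, a gene of the Y chromosome, lay between 1.28 and 2.60 on the Smurf2-/- arrays and between -1.38 and -1.28 on the wild-type arrays. Genotype and these genes cannot be told apart in any comparison of the genotypes below, whereas late and early arrays of a genotype stood on the same side.

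No cluster passed the test of late against early passage within Smurf2-/- cells. That test was limma's moderated fit over all 8 arrays, with a Benjamini-Hochberg adjusted p under 0.05 as the threshold, and it called 0 of 24169 clusters (0%), with a smallest adjusted p of 0.113, or 0.102 over gene means, on which list members were tested. At an unadjusted p under 0.05 there were 3480 clusters (14.4%), 1653 of them higher (6.84%) and 1827 lower (7.56%) at late passage. An exact permutation of 2 arrays against 2 that ignores the backgrounds cannot go below p = 0.333, and a permutation within backgrounds has fewer arrangements. The differences below are accordingly given as values, with their agreement between the backgrounds, and counts at an unadjusted p are a description. The gene lists and their members were chosen with earlier results of these data known, so counts of list members are a description as well.

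Both backgrounds moved past a log2 difference of 1 in the same direction at 224 clusters. At late passage 42 clusters (0.174%) were at least 1 higher in both, which is 12.8% of the 329 clusters higher by that much in mixed BL (1.36% of all) and 13.2% of the 318 in C57B6 (1.32%). A further 182 clusters (0.753%) were at least 1 lower in both, or 28.3% of the 643 lower in mixed BL (2.66%) and 22.7% of the 801 in C57B6 (3.31%). After quantile normalization of the arrays the counts were 64 higher and 111 lower, so that the higher share was 36.6% in place of 18.8%. Among the 42 shared higher clusters, 6 were also at least 1 higher in wild-type mixed BL cells and 6 in wild-type C57B6 cells, against 1.6% and 0.563% of all clusters. Among the 182 shared lower clusters, 79 were at least 1 lower in wild-type mixed BL and 30 in wild-type C57B6 cells, against 2.28% and 1.5%.

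**Figure D1:**
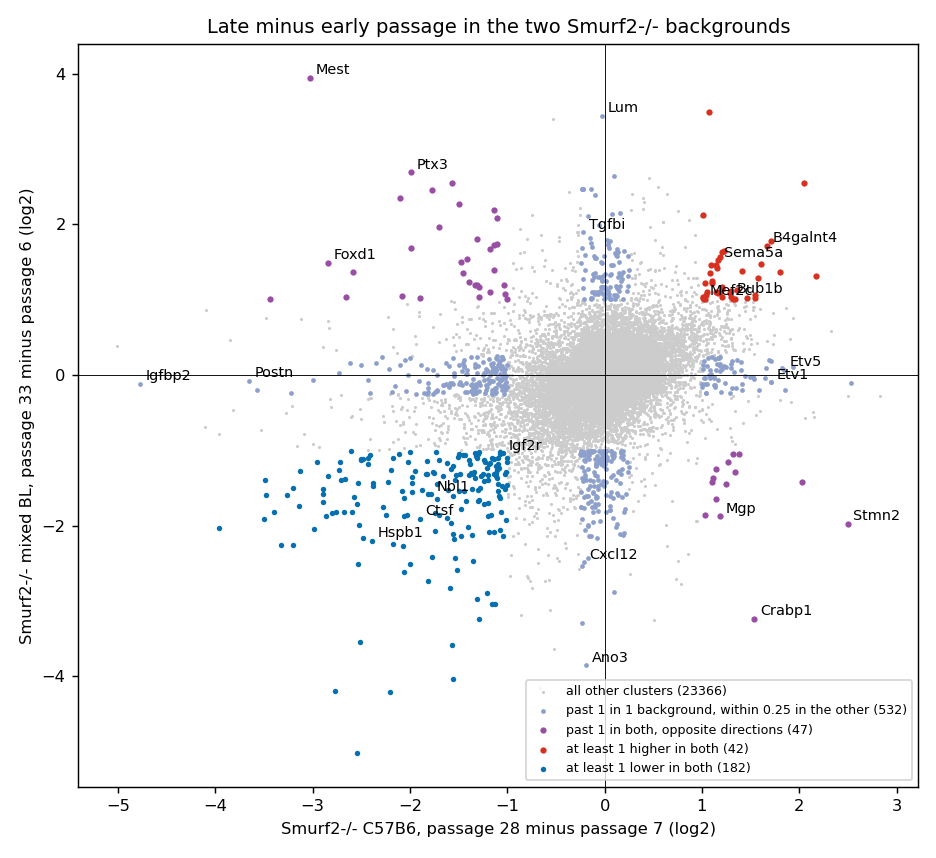
Late minus early passage in Smurf2-/- fibroblasts for 24169 transcript clusters, C57B6 on the horizontal axis and mixed BL on the vertical axis, both log2 differences of 1 array against 1. The 42 clusters higher in both and the 182 lower in both are coloured, as are the 47 past 1 in opposite directions. Also coloured are the 532 past 1 in a single background and within 0.25 of 0 in the other.

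The shared higher genes included several that act in chromosome duplication and segregation. Bub1b, which encodes the BubR1 kinase of the spindle checkpoint, stood at 1.07 and 1.27 on the late Smurf2-/- arrays of mixed BL and C57B6, against 0.03 and -0.03 on the early ones. The late and early arrays did not overlap, and the mean difference was 1.17 ± 0.13 (SE, 2.25-fold, limma adjusted p = 0.115). Of the same kind, Kntc1, a kinetochore protein gene, was higher by 1.11 in mixed BL and 1.05 in C57B6, and Ska3, which helps hold microtubules at kinetochores, by 1.14 and 1.20. Pole, the catalytic subunit of DNA polymerase epsilon, was higher by 1.03 and 1.20. Prr11, a gene of cell cycle progression, was higher by 1.02 and 1.01, and Cdca7, a Myc and E2F target, by 1.12 and 1.36. In wild-type cells Cdca7 was also higher, by 0.79 and 1.02.

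Other shared higher genes had other roles. Mef2c, a transcription factor of muscle and neural cells, stood at 1.10 and 0.90 on the late Smurf2-/- arrays, against 0.09 and -0.12 on the early ones, a mean difference of 1.01 ± 0.08 (SE, 2.02-fold, limma adjusted p = 0.113). Both late arrays were well above all 6 others, the wild-type ones included. B4galnt4, a glycosyltransferase gene, was at 1.67 and 1.55 on the late and at -0.05 and -0.11 on the early arrays, a mean difference of 1.69 ± 0.11 (SE, 3.23-fold, limma adjusted p = 0.113). Sema5a, an axon guidance protein gene, was higher by 1.53 in mixed BL and 1.17 in C57B6. Spon2, a secreted matrix protein gene, was higher by 1.47 and 1.61, Slc29a1, the nucleoside transporter ENT1, by 1.23 and 1.10, and Fkbp4, a co-chaperone of Hsp90, by 1.01 and 1.31.

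Among the shared lower genes, Hspb1, the small heat shock protein Hsp27, showed the smallest p for a departure from wild type. It stood at -1.95 and -2.23 on the late Smurf2-/- arrays of mixed BL and C57B6, against 0.26 and 0.16 on the early ones, a mean difference of -2.29 ± 0.13 (SE, 4.90-fold, limma adjusted p = 0.113). In wild-type cells it was higher at late passage, by 0.68 in mixed BL and 0.73 in C57B6. The difference between the genotypes was -3.00 ± 0.19 (SE), with an unadjusted p of 1.83e-05 and a limma adjusted p of 0.28. Nbl1, a secreted BMP antagonist gene, was lower by 1.58 in mixed BL and 1.78 in C57B6. The early arrays of both were near or above the median of all 8, and the late arrays were the lowest 2.

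The other shared lower genes named by the smallest p had varied roles. Ctsf, the lysosomal protease cathepsin F, differed by -1.91 in mixed BL and -1.90 in C57B6. Cpeb1, which binds mRNA and sets its poly(A) tail, differed by -1.99 and -2.53. Igf2r, the receptor that carries mannose 6-phosphate tagged enzymes to lysosomes and takes up Igf2, differed by -1.04 in each background. Sh3pxd2a, the podosome scaffold Tks5, differed by -1.16 and -1.62, S100a16, a calcium-binding protein gene, by -1.10 and -1.09, and Azin2, an antizyme inhibitor of the polyamine pathway, by -1.24 and -1.21. H2bc4, a histone H2B gene, differed by -2.07 and -1.74. Tmem150a, Tmem80 and Itpripl2, membrane protein genes, differed by between -1.34 and -1.03. All 12 had a limma adjusted p of 0.113.

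**Figure D2:**
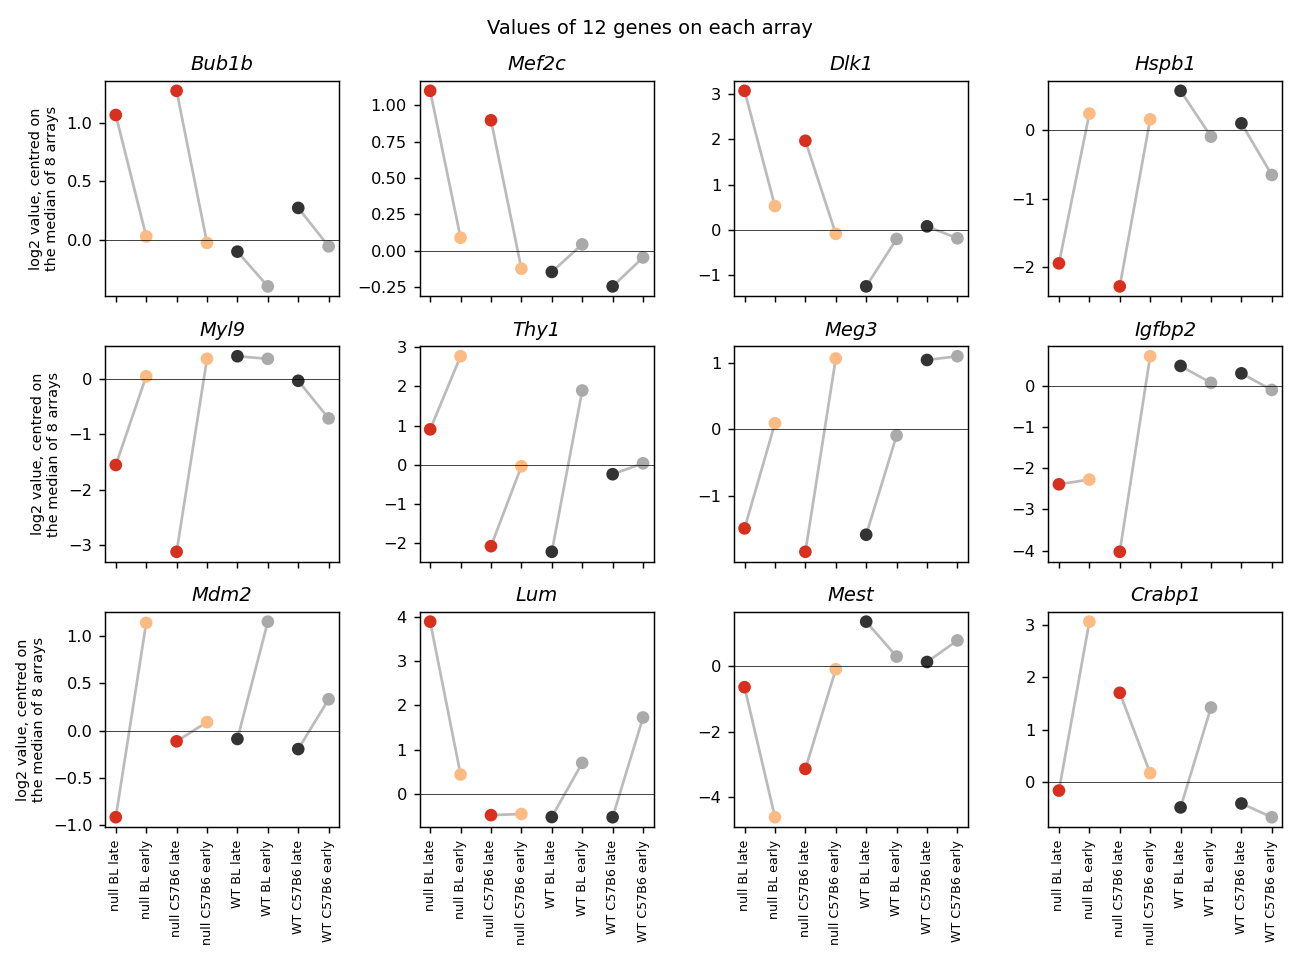
Values of 12 genes on each array, as log2 difference from the gene's median over 8 arrays, with a line joining the late (left) and early (right) array of each pair. Bub1b, Mef2c and Dlk1 were higher on both late Smurf2-/- arrays and Hspb1, Myl9, Thy1 and Meg3 lower, whereas Igfbp2, Mdm2, Lum, Mest and Crabp1 differed between the backgrounds.

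Mitosis genes stood together at late passage. The list held kinases, cyclins, kinesins and kinetochore genes that act from the G2 phase to cell division. Of 31 measured members, 31 were higher at late passage in both backgrounds, against 34.7% of 17501 genes, and the median was 0.56 in mixed BL and 0.97 in C57B6. At an unadjusted p under 0.05 there were 29 of 31, against 6.06% of all genes in this direction, and no member passed after adjustment. In these bulk samples more cells in mitosis and more RNA per cell cannot be told apart. In wild-type cells the medians were -0.03 and 0.00. The difference between the genotypes had an unadjusted p under 0.05 for 21 of 31 members, against 5.35% of all genes. Ccna2, cyclin A2, stood at 0.93 and 1.20 on the late Smurf2-/- arrays of mixed BL and C57B6, against -0.25 and -0.01 on the early ones, with no overlap (1.19 ± 0.18, SE, limma adjusted p = 0.113). Cdca8, the borealin subunit of the chromosomal passenger complex, differed by 1.28 and 0.85, Cenpa, the histone variant of centromeres, by 1.06 and 1.04, and Mad2l1 of the spindle checkpoint by 0.53 and 1.74. Top2a, the topoisomerase that untangles sister chromatids, stood at 0.84 and 1.03 on the late and at -0.14 and 0.02 on the early arrays. Hmmr, a spindle and hyaluronan binding protein gene outside the list, was higher by 0.60 and 0.64 in Smurf2-/- cells and lower by 0.57 and 0.56 in wild-type cells.

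The start-site regions of 3 of these genes are shown because their promoters carry the letters by which mitosis genes are often recognised: the cell cycle homology region TTTGAA and the CCAAT box, each on either strand, in capitals. Each runs 250 bases before to 50 after the gene's start, from RefSeq on GRCm38.p6.
Bub1b promoter, chr2:118597961-118598260, plus strand: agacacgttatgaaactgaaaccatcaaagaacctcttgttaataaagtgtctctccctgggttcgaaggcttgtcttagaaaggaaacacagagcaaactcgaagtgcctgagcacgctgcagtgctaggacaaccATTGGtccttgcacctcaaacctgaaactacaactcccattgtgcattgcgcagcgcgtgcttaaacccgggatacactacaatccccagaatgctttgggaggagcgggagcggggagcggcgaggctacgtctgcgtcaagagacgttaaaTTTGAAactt
Cdca8 promoter, chr4:124936868-124937167, minus strand: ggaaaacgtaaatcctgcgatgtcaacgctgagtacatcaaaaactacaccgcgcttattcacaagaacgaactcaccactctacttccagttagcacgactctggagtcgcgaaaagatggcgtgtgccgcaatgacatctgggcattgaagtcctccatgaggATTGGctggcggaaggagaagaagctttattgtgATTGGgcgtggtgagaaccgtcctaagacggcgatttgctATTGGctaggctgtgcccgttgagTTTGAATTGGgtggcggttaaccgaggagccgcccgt
Cenpa promoter, chr5:30666636-30666935, plus strand: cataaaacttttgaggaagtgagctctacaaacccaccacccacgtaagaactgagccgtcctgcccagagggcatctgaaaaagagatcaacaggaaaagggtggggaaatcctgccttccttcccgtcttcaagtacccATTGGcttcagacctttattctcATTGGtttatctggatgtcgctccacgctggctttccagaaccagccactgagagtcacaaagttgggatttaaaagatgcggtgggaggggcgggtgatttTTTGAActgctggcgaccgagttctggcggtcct
In Cdca8 a TTTGAA and a CCAAT box on the other strand share 1 base. Of the list, 24 genes had such a region, in 25 entries. TTTGAA was in 18 of the 25 (72%), against 17.9% of all 32851 entries, and CCAAT in 19 (76%), against 37.4%. The E2F letters TTGGCGC or TTCCCGC were in 1 of 25 (4%), against 6.81% of all entries. The window of Mad2l1 held none of these letters, and no region of Ccna2 is shown. A match is a description of letters and not of binding.

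Replication genes were higher mainly in the C57B6 pair, and repair genes in both pairs, with the larger median in C57B6. The replication list, of helicase, polymerase, licensing and nucleotide synthesis genes, had a median of 0.24 in mixed BL and 1.02 in C57B6. Of 38 measured members, 28 were higher in both backgrounds, against 34.7% of all genes. Of the 38, 1 was at least 1 higher in mixed BL and 20 in C57B6, against 1.38% and 1.49% of all genes. Rfc4 of the clamp loader differed by 0.91 in mixed BL and 1.52 in C57B6, Dtl of a licensing control ligase by 0.91 and 1.43, and the helicase subunits Mcm5 and Mcm2 by 0.80 and 1.39 and by 0.45 and 1.67. Rrm2, a ribonucleotide reductase subunit, went the other way in mixed BL, at -1.37, against 1.11 in C57B6. The repair list had a median of 0.36 in mixed BL and 0.80 in C57B6, with 23 of 25 members higher in both, against 34.7%. Fancd2 of the Fanconi pathway stood at 0.95 and 1.09 on the late arrays, against -0.16 and -0.06 on the early ones. Brca2 and the helicase gene Blm differed by 1.03 and 1.10 in mixed BL and by 1.01 and 0.84 in C57B6. In wild-type cells the medians of the replication list were 0.15 and -0.05 and those of the repair list 0.02 and -0.13 (mixed BL first).

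**Figure D3:**
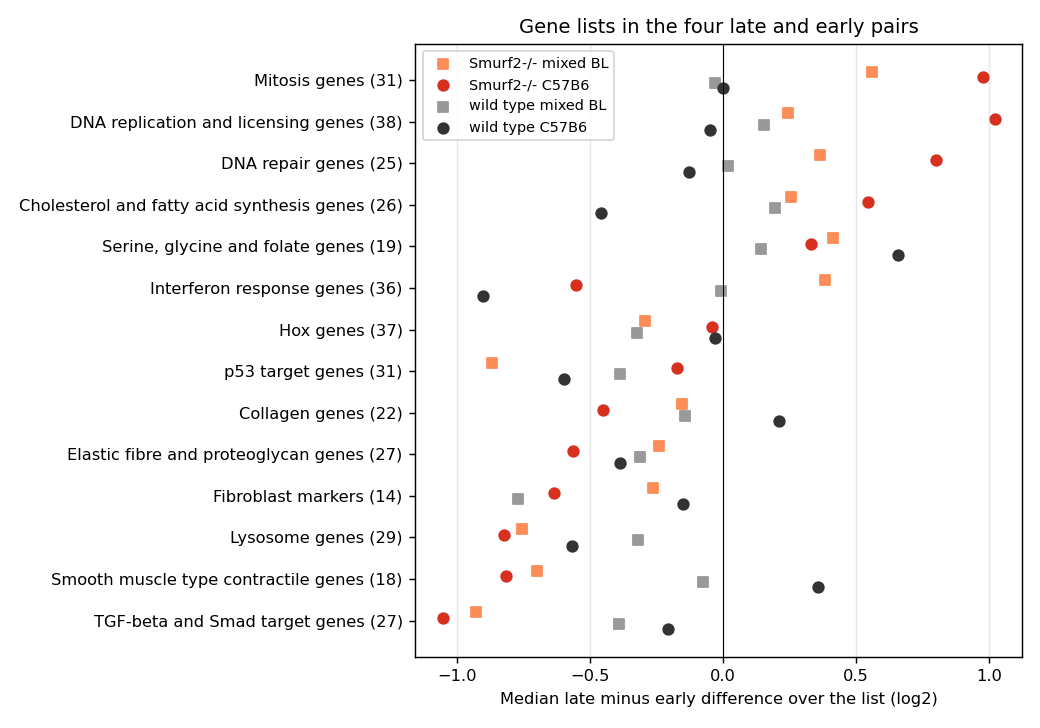
Median late minus early log2 difference of 14 gene lists, with the number of measured members in brackets, in the Smurf2-/- and the wild-type pair of each background. The mitosis list stood at 0.56 and 0.97 in the Smurf2-/- pairs of mixed BL and C57B6, against -0.03 and 0.00 in the wild-type pairs, and the contractile list at -0.70 and -0.82, against -0.08 and 0.36.

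Genes of contractile fibres were lower at late passage in both backgrounds. The list of smooth muscle type contractile genes, which fibroblasts express when they become myofibroblasts, had a median of -0.70 in mixed BL and -0.82 in C57B6, with 13 of 18 members lower in both, against 25.7% of all genes. Of the 18, 12 were lower at an unadjusted p under 0.05, against 8.71% of all genes, and none after adjustment. Myl9, a regulatory myosin light chain, stood at -1.56 and -3.12 on the late Smurf2-/- arrays of mixed BL and C57B6, against 0.04 and 0.36 on the early ones. The mean difference was -2.54 ± 0.45 (SE, 5.81-fold, limma adjusted p = 0.136), and the late arrays were the lowest of all 8. Tagln, the actin-binding SM22, stood at -1.42 and -1.12 on the late and at 0.43 and 0.58 on the early arrays. Cnn1, calponin, differed by -0.94 and -3.16, Csrp1, a LIM protein gene, by -1.31 and -1.38, Tpm2, a tropomyosin, by -0.93 and -1.74, and Acta2, smooth muscle actin, by -0.79 and -0.94. In wild-type cells the list's medians were -0.08 in mixed BL and 0.36 in C57B6. The difference between the genotypes had an unadjusted p under 0.05 for 9 of 18 members, against 5.35% of all genes. Mylk, the kinase of myosin light chains, differed by 0.41 and 0.03.

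The promoter of Myl9 is shown because it holds, in capitals, a CArG box, the element bound by serum response factor in many smooth muscle genes.
Myl9 promoter, chr2:156775214-156775513, plus strand: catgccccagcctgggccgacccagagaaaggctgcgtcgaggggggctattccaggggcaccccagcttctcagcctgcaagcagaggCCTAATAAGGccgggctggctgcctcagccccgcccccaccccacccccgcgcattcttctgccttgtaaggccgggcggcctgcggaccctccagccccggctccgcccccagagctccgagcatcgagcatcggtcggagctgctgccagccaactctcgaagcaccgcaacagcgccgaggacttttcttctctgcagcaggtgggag
The CArG box was in 2 of 16 entries for the list's genes (12.5%), against 1.63% of all 32851 entries, and in none of the windows of Cnn1, Csrp1 and Tpm2. It was looked for after the values were seen.

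TGF-beta and Smad target genes were lower in both backgrounds, with medians of -0.93 in mixed BL and -1.05 in C57B6. Of 27 measured members, 22 were lower in both, against 25.7% of all genes, 15 were lower at an unadjusted p under 0.05, against 8.71%, and none after adjustment. In wild-type cells the medians were -0.39 and -0.20, and the difference between the genotypes had an unadjusted p under 0.05 for 4 of 27, against 5.35% of all genes. The feedback inhibitor Smad7 stood at -0.82 and -0.67 on the late Smurf2-/- arrays of mixed BL and C57B6, against 0.95 and 0.80 on the early ones. It was also lower in wild-type mixed BL cells, by 1.42, and not in wild-type C57B6 cells, at 0.32. Ccn2, the secreted connective tissue growth factor, stood at -1.36 and -1.93 on the late and at 0.27 and 0.13 on the early arrays. Ltbp2, a microfibril protein gene, differed by -1.82 and -2.67, Thbs2, a matricellular protein gene, by -1.59 and -3.26, and Itga11, a collagen-binding integrin subunit, by -0.95 and -2.93. Lrrc32, which holds latent TGF-beta on the cell surface, differed by -1.65 and -1.72 in Smurf2-/- cells and by -1.42 and -1.91 in wild-type cells. The member against this direction was Tgfbi, a secreted matrix protein gene, at 1.89 in mixed BL and -0.22 in C57B6.

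Id genes, direct targets of BMP signals that hold back differentiation, were lower as well. Id3 stood at -1.40 and -0.92 on the late Smurf2-/- arrays of mixed BL and C57B6, against 0.15 and 0.57 on the early ones, a mean difference of -1.52 ± 0.16 (SE, 2.87-fold, limma adjusted p = 0.102). Id1 differed by -1.50 and -0.93, against -0.64 and -0.17 in wild-type cells, and Id2 by -0.98 and -1.22. The ligand gene Bmp4 stood at -1.90 and -1.44 on the late and at -0.30 and 0.12 on the early arrays. Over the whole BMP and Id list the medians were -0.05 and -0.18, with 11 of 24 members lower in both, against 25.7% of all genes, and 6 higher in both, against 34.7%. Dlx5, a homeobox target gene of BMP signals, was higher by 1.29 and 0.95. Grem1, a BMP antagonist, differed by 0.38 in mixed BL and -5.01 in C57B6.

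Lysosome genes were lower in both backgrounds, with medians of -0.75 in mixed BL and -0.82 in C57B6. Of 29 measured members, 26 were lower in both, against 25.7% of all genes, and 21 at an unadjusted p under 0.05, against 8.71%, none after adjustment. In wild-type cells the medians were -0.32 and -0.57, and 6 of 29 had an unadjusted p under 0.05 for the difference between the genotypes, against 5.35% of all genes. Cathepsin F stood at -1.66 and -1.74 on the late Smurf2-/- arrays, against 0.24 and 0.16 on the early ones. The protective protein Ctsa stood at -0.89 and -0.67 on the late and at 0.01 and 0.32 on the early arrays. Ctsd, the main aspartic protease of lysosomes, differed by -1.16 and -1.22, and the proton pump subunit Atp6v0d1 by -1.03 and -0.89. The macrophage gene Lyz2 was also lower, at -2.49 in mixed BL and -0.68 in C57B6, as was Cd68, at -0.52 and -0.97. In wild-type cells Lyz2 differed by -3.33 and -0.39 and Cd68 by -1.10 and -0.99. The list of 15 macrophage and leukocyte markers had medians of -0.11 and 0.10, with 2 members lower in both, against 25.7% of all genes. Its summed values were -0.98 and 0.12 on the late arrays, against 2.94 and -0.29 on the early ones. Its part in the lysosome result was not tested.

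Imprinted genes, expressed from 1 parental copy, held some of the largest shared differences, in both directions. Dlk1, a paternally expressed membrane protein gene that holds back fat cell formation, stood at 3.07 and 1.97 on the late Smurf2-/- arrays of mixed BL and C57B6, against 0.53 and -0.08 on the early ones. In wild-type cells the difference was -1.05 in mixed BL and 0.26 in C57B6. Meg3, the maternally expressed noncoding RNA of the same region, stood at -1.48 and -1.83 on the late and at 0.09 and 1.06 on the early arrays. Its neighbour Rian, the host of small nucleolar RNAs, stood at -1.39 and -0.66 on the late and at 0.15 and 1.42 on the early arrays. In wild-type cells Meg3 differed by -1.49 in mixed BL and -0.06 in C57B6, and Rian by -0.66 and 0.15. Other protein-coding genes of the region differed less in Smurf2-/- cells, Rtl1 by 0.09 in mixed BL and -0.45 in C57B6 and Dio3 by 0.22 and 0.27. Peg10, a paternally expressed gene derived from a retrotransposon, was higher by 1.36 and 1.80, and Grb10, an adaptor that restrains growth factor receptors, lower by 1.76 and 0.88. Over the whole list of 22 genes the medians were 0.00 in mixed BL and -0.31 in C57B6. The 22 include Nckap1, which is not an imprinted gene, at -0.46 and -0.11.

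The miRNA genes between Dlk1 and Dio3 on chromosome 12, taken up after the values of Meg3 were seen, had the same direction as Meg3. All 38 had 1 cluster each, and 35 of 38 were lower in both backgrounds, against 24.3% of all clusters. As neighbours in 1 region they cannot be taken as 38 independent observations, so this count is a description. Their medians were -0.46 in mixed BL and -1.34 in C57B6, against -0.29 and 0.06 in wild-type cells. The 159 miRNA clusters elsewhere had medians of -0.04 and 0.04 in the Smurf2-/- pairs. At least 1 lower in both were 9 of 38, against 0.753% of all clusters. The mature sequences of the 4 with the largest mean difference are printed, from RefSeq on GRCm38.p6, with the seed (bases 2 to 8, which pair with target mRNAs) in capitals.
miR-382-5p, chr12:109733781-109733802, plus strand: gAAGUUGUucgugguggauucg
miR-382-3p, chr12:109733819-109733840, plus strand: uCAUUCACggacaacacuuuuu
miR-380-5p, chr12:109711806-109711827, plus strand: aUGGUUGAccauagaacaugcg
miR-380-3p, chr12:109711842-109711863, plus strand: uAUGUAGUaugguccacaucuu
miR-329-5p, chr12:109713503-109713524, plus strand: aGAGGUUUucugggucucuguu
miR-329-3p, chr12:109713541-109713562, plus strand: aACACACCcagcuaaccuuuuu
miR-679-5p, chr12:109715587-109715608, plus strand: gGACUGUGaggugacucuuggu
miR-679-3p, chr12:109715624-109715645, plus strand: aGCAAGGUccuccucacaguag
No seed was shared among these 8. Mir382 differed by -1.51 in mixed BL and -3.20 in C57B6, Mir380 by -1.51 and -2.89, Mir329 by -1.27 and -3.13 and Mir679 by -1.62 and -2.58. In wild-type mixed BL cells the same clusters differed by -1.05, -1.10, -1.08 and -0.72, and in wild-type C57B6 cells by 0.03, 0.19, 0.09 and 0.12. Whether these clusters measured precursor or mature RNA was not tested.

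**Figure D4:**
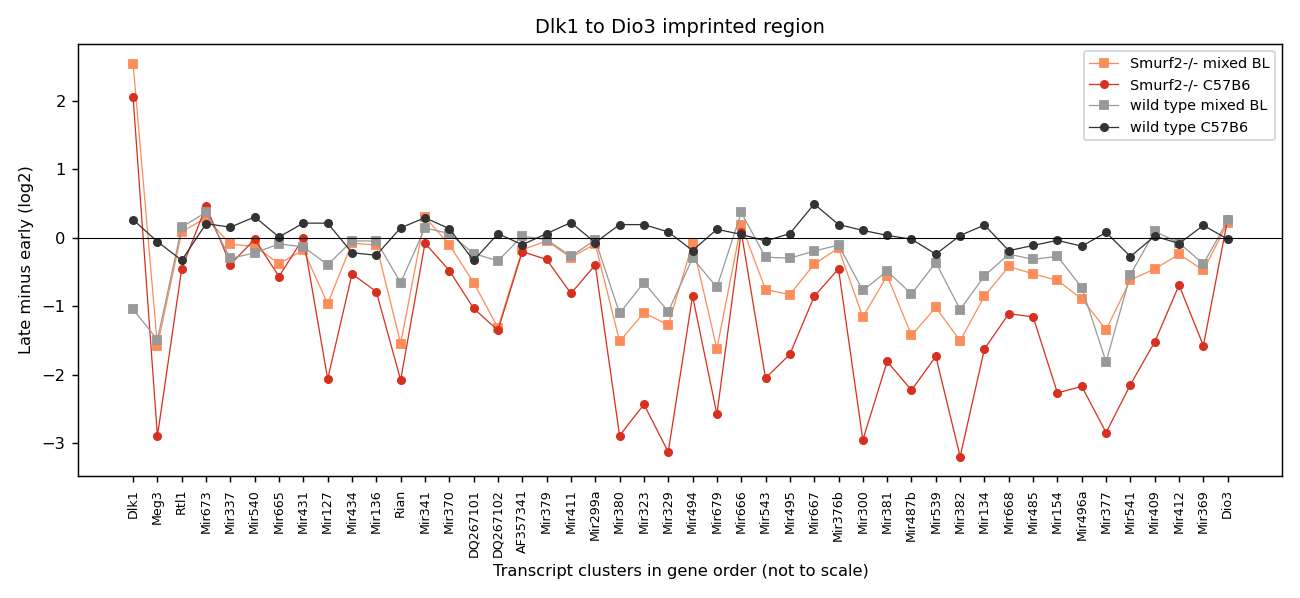
Late minus early log2 difference of each transcript cluster between Dlk1 and Dio3, in gene order and not to scale, in the 4 pairs of arrays. Dlk1 was higher and Meg3, Rian and most miRNA clusters lower in both Smurf2-/- pairs, the C57B6 pair showing the lower miRNA values.

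Matrix, homeobox and surface genes shared fewer differences. Collagen genes had medians of -0.15 in mixed BL and -0.45 in C57B6, with 10 of 22 lower in both, against 25.7% of all genes, among them Col5a1 at -0.88 and -1.44. Of elastic fibre and proteoglycan genes 15 of 27 were lower in both, against the same 25.7%, with medians of -0.24 and -0.56. Fbln5, a fibulin of elastic fibres, differed by -1.44 and -1.72, and Ltbp4, which binds latent TGF-beta to such fibres, by 2.11 and 0.99, against 1.34 and 1.15 in wild-type cells. The fibroblast markers had medians of -0.26 and -0.63, with 9 of 14 lower in both, against 25.7% of all genes. In wild-type cells their medians were -0.77 and -0.15. Thy1, a surface marker of fibroblasts, stood at 0.90 and -2.07 on the late Smurf2-/- arrays of mixed BL and C57B6, against 2.76 and -0.04 on the early ones, so that the late and early arrays overlapped across backgrounds. The wild-type pairs differed at Thy1 by -4.1 in mixed BL and -0.28 in C57B6. The medians of the 8 lists of other cell types lay between -0.11 and 0.09 in mixed BL and between 0.10 and 0.21 in C57B6. Gas6, a ligand of the Axl receptor, differed by -4.19 and -2.77 in Smurf2-/- cells and by -2.45 and -2.07 in wild-type cells. Hox genes, which mark position along the body, had medians of -0.29 and -0.04. Hoxc8 stood at -0.67 and -0.37 on the late Smurf2-/- arrays, against 3.37 and 1.20 on the early ones, and differed in wild-type cells by -3.44 and -1.07.

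Metabolic lists differed by less. Cholesterol and fatty acid synthesis genes had medians of 0.26 in mixed BL and 0.54 in C57B6, with 19 of 26 higher in both, against 34.7% of all genes. The wild-type medians were 0.20 and -0.46. Acaca, which makes malonyl-CoA, differed by 0.94 and 0.74 and Cyp51, a sterol demethylase, by 0.62 and 0.72. Serine, glycine and folate genes had medians of 0.41 and 0.33, with 12 of 19 higher in both, against 34.7% of all genes. The wild-type medians of this list were 0.14 and 0.66. Aldh1l2 of the list differed by 1.36 in mixed BL and -1.45 in C57B6, and by 1.5 and 1.61 in wild-type cells. The mitochondrial folate enzyme gene Mthfd2 differed by 1.01 and 0.83, and in wild-type cells by 0.69 and 1.30.

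Differences of a single background were next examined, as clusters past 1 in it and within 0.25 of 0 in the other. In mixed BL alone 105 clusters (0.434%) were higher and 152 (0.629%) lower, and in C57B6 alone 66 (0.273%) were higher and 209 (0.865%) lower. The limma test of the difference between the backgrounds called 0 of 24169 clusters, with a smallest adjusted p of 0.847 and 1249 clusters (5.17%) at an unadjusted p under 0.05. It rests on 1 residual degree of freedom, which measures only how far the late minus early differences of the wild-type pairs disagreed. A difference between the Smurf2-/- pairs cannot be told apart from the spread between cultures, or from the passages, which were not the same.

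The genes higher in mixed BL alone that differed most between the backgrounds had varied roles. Over all 105 clusters of this class, 33 (31.4%) were also at least 1 higher in wild-type mixed BL cells, against 1.6% of all clusters. Lum, the matrix proteoglycan lumican, stood at 3.89 on the late and 0.44 on the early Smurf2-/- array of mixed BL, against -0.47 and -0.44 in C57B6. The late mixed BL array was the highest of all 8, and in wild-type cells Lum differed by -1.22 and -2.25. Cp, the copper carrier ceruloplasmin, differed by 2.64 in mixed BL and 0.10 in C57B6, Car6, a secreted carbonic anhydrase, by 2.39 and -0.10, and Hhip, a hedgehog-binding protein, by 2.15 and 0.16. Ndrg1, a stress response gene, differed by 2.14 and 0.07, and Ntrk3, a neurotrophin receptor, by 2.11 and -0.17. Of the 8 genes named, wild-type mixed BL cells showed a difference past 1 in the same direction for Ntrk3 (1.85), Ndrg1 (1.14) and Tgfbi (2.64), as for Cnmd, the cartilage gene chondromodulin, at 1.99 in Smurf2-/- and 4.64 in wild-type mixed BL cells.

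Of the 152 clusters lower in mixed BL alone, 62 (40.8%) were also at least 1 lower in wild-type mixed BL cells, against 2.28% of all clusters. Ano3, of the anoctamin family, differed by -3.85 in mixed BL and -0.19 in C57B6, Gpr149, an orphan receptor, by -3.29 and -0.23, and Flrt2, an adhesion protein gene, by -2.88 and 0.10. Tenm3, a teneurin, Serpinb9b, a protease inhibitor gene, Cyba, a subunit of NADPH oxidase, and Cdh10, a cadherin, differed by between -2.54 and -2.10 in mixed BL. In wild-type mixed BL cells these 7 differed by between -4.15 and -1.25. Cxcl12, a chemokine of stromal cells, was the exception among the 8 genes named, at -2.54 on the late and -0.06 on the early Smurf2-/- array of mixed BL, with a difference of 1.22 in wild-type mixed BL cells.

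The p53 target genes were lower mainly in mixed BL. The list, of genes that p53 switches on for arrest, repair and death, had a median of -0.87 in mixed BL and -0.17 in C57B6, and in wild-type cells of -0.39 and -0.60. Of 31 measured members, 14 were at least 1 lower in mixed BL and 4 in C57B6, against 3.23% and 3.27% of all genes, and 2 in both, against 0.869%. Mdm2, the ligase that p53 induces and that degrades p53, stood at -0.92 on the late and 1.14 on the early Smurf2-/- array of mixed BL, against -0.11 and 0.09 in C57B6. The late mixed BL array was the lowest of all 8. Ccng1, cyclin G1, stood at -0.89 on the late and 0.74 on the early mixed BL array, against -0.16 and 0.20 in C57B6, and Phlda3, an Akt inhibitor, at -1.45 and 0.25, against -0.09 and 0.09. Eda2r, a death receptor of the TNF family, differed by -2.13 in mixed BL and -0.51 in C57B6. The members at least 1 lower in both were Btg2, an antiproliferative gene, at -1.61 and -1.09, and Pmaip1, the apoptosis gene Noxa, at -1.17 and -1.18. Gadd45a, a growth arrest gene, went the other way in mixed BL, at 1.25, against -0.60 in C57B6. The difference between the backgrounds had an unadjusted p under 0.05 for 11 of 31 members, against 5.38% of all genes, and for none after adjustment. The spread behind that test came from the wild-type pairs alone. Of the CDK inhibitors, Cdkn2a, which encodes p16 and p19Arf, differed by 0.52 and 0.18, Cdkn2b by -0.54 and 0.08, Cdkn2c by 1.61 and 0.27 and the imprinted Cdkn1c by -0.48 and -2.17.

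In C57B6 alone the higher genes included 3 of the Pea3 group of ETS transcription factors, which respond to growth factor signals. Etv5 stood at 0.41 on the late and 0.34 on the early Smurf2-/- array of mixed BL, and at 1.06 and -0.78 in C57B6. Etv1 differed by -0.09 in mixed BL and 1.71 in C57B6, and Etv4 by -0.19 and 1.59. Angpt1, the ligand of the Tie2 receptor, stood at -0.09 on the late and 0.01 on the early array of mixed BL, and at 1.33 and -1.20 in C57B6. Arhgap18, a GTPase-activating protein, Pde8b, a phosphodiesterase, Hunk, a kinase, and Mctp1, a calcium sensor, differed by between 1.41 and 1.86 in C57B6. Of the 8 genes named, Pde8b alone was past 1 in wild-type C57B6 cells in the same direction, and of all 66 clusters of this class 3 (4.55%) were, against 0.563% of all clusters.

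Of the 209 clusters lower in C57B6 alone, 20 (9.57%) were also at least 1 lower in wild-type C57B6 cells, against 1.5% of all clusters. Igfbp2, which binds insulin-like growth factors, was low on both Smurf2-/- arrays of mixed BL, at -2.39 on the late and -2.27 on the early one. In C57B6 it stood at -4.03 on the late and 0.74 on the early array, 27.2-fold apart, while the 4 wild-type arrays lay between -0.09 and 0.50. Postn, the matrix protein periostin, stood at 0.35 on the late and 0.43 on the early array of mixed BL, and at -4.29 and -0.64 in C57B6. Nrep, a neuronal regeneration protein gene, differed by -0.07 in mixed BL and -3.00 in C57B6, and Svep1, an adhesion protein gene, by 0.24 and -2.29. Efemp1, fibulin 3, differed by -0.23 and -3.23, and by -4.39 in wild-type C57B6 cells. Trim12a and Trim25, of the tripartite motif family, and Rnf130, a ubiquitin ligase, differed by between -2.62 and -2.22 in C57B6. Of the 8 genes named, Efemp1, Trim12a (-1.72) and Trim25 (-1.20) were also past 1 lower in wild-type C57B6 cells. Among IGF axis genes Pappa, a protease of IGF-binding proteins, differed by -0.79 in mixed BL and -3.96 in C57B6, and Htra1, another such protease, by 0.74 and -3.12.

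At 47 clusters the backgrounds moved past 1 in opposite directions. At 33 (0.137%) the late array was higher in mixed BL and lower in C57B6. Mest, a paternally expressed imprinted gene, stood at -0.65 on the late and -4.60 on the early Smurf2-/- array of mixed BL, against -3.13 and -0.11 in C57B6, while the 4 wild-type arrays lay between 0.11 and 1.33. Ptx3, a secreted pentraxin, differed by 2.69 in mixed BL and -1.99 in C57B6, Foxd1, a transcription factor of stromal cells, by 1.49 and -2.84, and Cemip, a hyaluronan-degrading protein gene, by 1.01 and -3.44. At 14 clusters (0.0579%) the late array was lower in mixed BL and higher in C57B6. Crabp1, a retinoic acid binding protein, stood at -0.17 on the late and 3.07 on the early array of mixed BL, against 1.71 and 0.17 in C57B6. Stmn2, a microtubule regulator of neurons, differed by -1.98 and 2.50, Ano1, a chloride channel, by -1.42 and 2.02, and Mgp, which inhibits calcification of matrix, by -1.88 and 1.19.

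Interferon response genes also stood on opposite sides. The list had a median of 0.38 in mixed BL and -0.55 in C57B6, with 30 of 36 members above 0 in mixed BL and 9 in C57B6, against 47.3% and 61.7% of all genes. Rtp4, an interferon-induced gene, stood at 1.72 on the late and -0.74 on the early Smurf2-/- array of mixed BL, against -0.05 and 1.72 in C57B6. Ifit3 stood at 0.76 and -0.78 in mixed BL, against -1.04 and 0.37 in C57B6, and Usp18, which removes ISG15, differed by 1.19 and -1.33. The wild-type C57B6 pair stood on the same side as the Smurf2-/- C57B6 pair, with a median of -0.90, whereas the wild-type mixed BL pair was near 0, at -0.01.

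**Figure D5:**
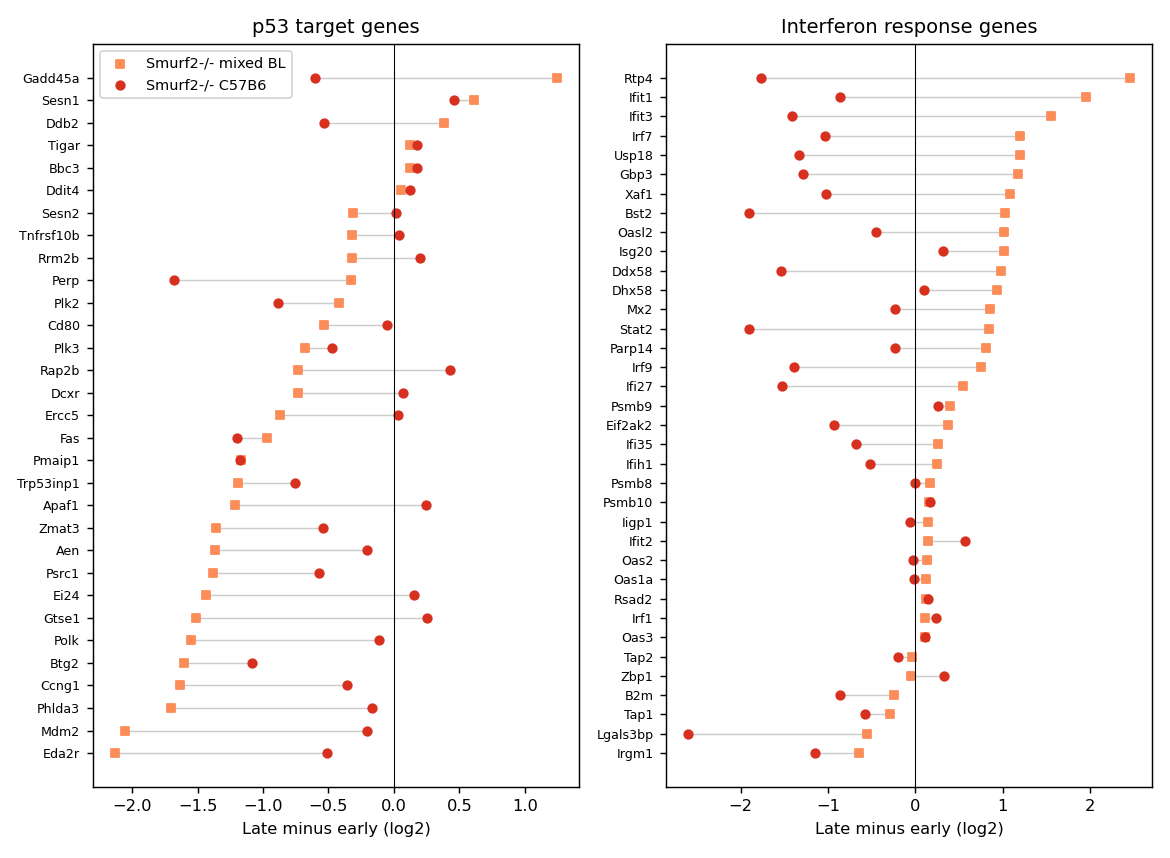
Late minus early log2 difference of each p53 target (left) and interferon response gene (right) in the Smurf2-/- pairs of mixed BL (squares) and C57B6 (circles), ordered by the mixed BL value. Most p53 targets lay further below 0 in mixed BL, from Eda2r at -2.13 and Mdm2 at -2.05 upwards, and most interferon genes lay above 0 in mixed BL and below 0 in C57B6.

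The last comparison asked where long culture differed between Smurf2-/- and wild-type cells. The limma test of that difference called 0 of 24169 clusters, with a smallest adjusted p of 0.28 and 1204 clusters (4.98%) at an unadjusted p under 0.05. Beside Mef2c, Sema5a, B4galnt4, Ska3, Top2a and Hmmr, the smallest p-values among higher genes were of D030056L22Rik and Ccdc141. The uncharacterised D030056L22Rik differed by 0.72 and 0.80 in Smurf2-/- cells, against -0.40 and -0.37 in wild-type cells. Ccdc141, a coiled-coil protein gene, differed by 0.41 and 0.21, against -0.94 and -0.80. Among lower genes Hspb1 had the smallest p. Of the same direction, Dact1, a regulator of Wnt signals, differed by -0.93 and -0.85 in Smurf2-/- cells, against 0.08 and 0.18 in wild type. Alkal1, a ligand of the ALK receptor, differed by -1.83 and -2.79, against 0.56 and -0.03, and Tmem141, a membrane protein gene, by -0.54 and -0.58, against 0.27 and 0.30. The adjusted p of these genes lay between 0.28 and 0.797. The wild-type pairs gave 20 clusters at least 1 higher in both backgrounds (0.0828%) and 87 at least 1 lower (0.36%), against the 42 and 182 of the Smurf2-/- pairs.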

How the data were processed

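RNA of 8 cultures was hybridised to 1 Affymetrix array each, an exon array per the series text, although the probe identifiers matched a gene-level array's annotation. The deposited log2 values were centred by the authors on each cluster's median, since no cluster's median over the arrays exceeded 5e-07 in size. The normalization behind them is not given in the sources used here, and the submitters' processing notes list builds mm8 and mm9 without a role. Of 24169 clusters 19134 had 1 symbol, 1230 several and 3805 none. Gene lists used the mean of a gene's clusters (17501 genes).

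Limma 3.58.1 in R 4.3.3 was fitted to all 8 arrays with background, genotype, passage class and genotype by passage (3 residual degrees of freedom). The difference between backgrounds used a mean per Smurf2-/- array. The fits were tested on simulated data. Being centred, the values allowed no filter on dim clusters.

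Genes were named by rule: up to 12 shared genes per direction by smallest p, up to 8 per direction of a single background and 6 of opposite direction by size of the difference between backgrounds, 8 per direction of the difference between genotypes by smallest p, and list members of the largest mean difference or against their list. Members and lists were chosen with earlier results of these data known. Alternatives were quantile normalization, median centring, other blocks, robust moderation, gene means, other folds and each array left out.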

Additional observations from a re-analysis of the deposited data

Results flagged for a closer look

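At these genes the late minus early differences of compared pairs lay on opposite sides of 0, each by more than 0.25, with 1 array against 1 in every pair. None of the tested differences passed after adjustment. Between the genotypes, as Smurf2-/- minus wild type in limma's fit, the difference was 2.06 for Sema5a, 1.18 for Hmmr and 1.15 for D030056L22Rik (adjusted p = 0.719 each). It was -3.00 for Hspb1 (adjusted p = 0.28) and -0.848 for Tmem141 (adjusted p = 0.797).

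Between the backgrounds, as mixed BL minus C57B6 within Smurf2-/- cells, the difference was 6.97 for Mest, 4.68 for Ptx3, 4.45 for Cemip and 4.33 for Foxd1. It was 4.23 for Rtp4 and 4.12 for Trim30a, both interferon-induced. In the other direction it was -4.78 for Crabp1, -4.47 for Stmn2, -3.45 for Ano1 and -3.06 for Mgp. C3ar1, a complement receptor gene, stood at -2.9, with differences of -1.86 in mixed BL and 1.03 in C57B6. Sema3e, a secreted semaphorin gene, stood at -2.8, with -1.65 and 1.15. The limma adjusted p was 0.847 for all 12. The medians of the interferon response list differed by 0.934 between the backgrounds, a difference that was not tested.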

How the results depend on the processing

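Under every alternative run, limma called 0 clusters for late against early passage, for the difference between genotypes and for the difference between backgrounds. Clusters at an unadjusted p under 0.05 numbered 3480 for late against early passage and between 1616 and 5141 with 1 array left out. They numbered 1616 without the early Smurf2-/- C57B6 array, 1641 without the early mixed BL one and 5141 without the late mixed BL one. For the difference between genotypes they numbered 1204, and between 506 and 2890 with 1 array left out; the early Smurf2-/- arrays of C57B6 (506) and mixed BL (800), the late ones of mixed BL (2890) and C57B6 (1936) and the early wild-type C57B6 array (754) moved it most. For the difference between backgrounds they numbered 1249, or 2344 with passage by background fitted over both genotypes. The labels number early passage 1 and late passage 2, so the numbers pair no replicates; with genotype and background together as the replicate block, 0 clusters were called and 3129 had an unadjusted p under 0.05 (smallest adjusted p = 0.217). Shared higher clusters numbered 442 past 0.5, 3 past 1.5 and 64 after quantile normalization, and shared lower ones 867, 60 and 111. After quantile normalization 42% of clusters past 1 were higher in mixed BL and 44% in C57B6, against 33.8% and 28.4% as deposited. With a window of 0.5 the clusters of mixed BL alone numbered 182 higher and 270 lower, and those of C57B6 alone 135 and 368; for C57B6 alone there were 121 higher after quantile normalization and 102 lower over gene means. Medians of lists after quantile normalization were, in mixed BL, -0.672 for TGF-beta targets, -0.539 for contractile genes, -0.567 for lysosome genes, 0.306 for Polycomb genes and 0.119 for cartilage markers. In C57B6 they were -0.929 for TGF-beta targets, -0.693 for contractile genes, -0.720 for lysosome genes, -0.498 for glycolysis genes, 0.441 for serine genes, -0.186 for secretory genes, 0.136 for Polycomb genes, 0.002 for growth factor receptors, 0.024 for cartilage, 0.096 for adipocyte and 0.068 for haematopoietic markers. With arrays centred on their medians the C57B6 values were -0.879 for lysosome genes, -0.186 for secretory genes, 0.157 for Polycomb genes, -0.156 for growth factor receptors, 0.044 for cartilage, 0.096 for adipocyte and 0.086 for haematopoietic markers. The cause of these shifts was not tested. Cdkn2b ranged between -0.566 and 0.114 with 1 array left out and turned positive without the early mixed BL array. Of the other values of named clusters under alternatives, 711 kept direction and side of the threshold, with a smallest adjusted p of 0.1. Leaving out an array within 1 background leaves no pair, and the difference between backgrounds then has no residual degrees of freedom, so neither could be fitted.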

Other observations

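Genes of the NEDD4 family and of H2B ubiquitination, to which Smurf2 belongs or is tied, had medians of -0.29 in mixed BL and -0.16 in C57B6, with 11 of 16 members lower in both, against 25.7% of all genes, and none at least 1 lower. The 11 include Smurf2 itself, at -0.49 and -0.78. The related ligase Smurf1 differed by -0.11 and -0.13, and Rnf20, a ligase of histone H2B, by -0.55 and -0.25. In wild-type cells Smurf1 differed by -0.62 in mixed BL and 0.08 in C57B6, and Rnf20 by -0.61 and -0.09. Cytosolic ribosomal protein genes had medians of 0.25 and 0.15, with 27 of 33 higher in both, against 34.7% of all genes. Polycomb complex genes had medians of 0.24 and 0.21, with 11 of 25 higher in both, near that share. Secretory phenotype genes had medians of -0.19 and -0.13, Nrf2 and glutathione genes -0.21 and -0.03, glycolysis genes -0.20 and -0.35 and integrin and cadherin genes -0.60 and -0.01. Growth factor receptor genes stood at -0.03 and -0.10, IGF axis genes at 0.03 and -0.60 and CDK inhibitor genes at 0.42 and 0.23.

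By chromosome, the median late minus early difference in Smurf2-/- cells lay between -0.062 and 0.040 over the autosomes in mixed BL. In C57B6 it lay between 0.038 and 0.161, with chromosome 6 highest and the next at 0.096. Genes of the Y chromosome differed in Smurf2-/- cells of mixed BL and C57B6 by -0.13 and -1.32 for Eif2s3y, -0.52 and -0.58 for Uty and 0.44 and -0.47 for Kdm5d.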
